A study of Mus musculus with 16 samples.

Results

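Effector CD8 T cells with high surface PD-1 (PD-1hi) were compared with effector CD8 T cells with intermediate surface PD-1 (PD-1int), gene by gene. The arrays were chosen by their titles, which name the sorted subset: 4 PD-1hi and 4 PD-1int arrays, 8 of the 16 in the series. The others hold 4 naive and 4 memory CD8 arrays, which served to estimate the spread of each gene and to place it outside the comparison. All cells came from spleens of female C57BL/6 mice (spelled C56BL/6 in the strain labels) that had received leukaemia cells of Eµ-TCL1 mice 6 weeks before. In Eµ-TCL1 mice the TCL1 oncogene is driven in B cells and gives a disease like human chronic lymphocytic leukaemia (CLL), so every group, naive cells included, comes from a leukaemic host and there is no group from mice without leukaemia.

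The cells were sorted as lineage-negative, TCRb-positive and CD8-positive. Both effector gates took cells low for CD127, the receptor chain for IL-7 encoded by Il7r, and intermediate to high for CD44, an adhesion receptor of antigen-experienced T cells, and the level of PD-1 alone separated them. Naive cells were CD127hi CD44low and memory cells CD127hi CD44hi. Each subset has arrays numbered 1 to 4. Whether a number stands for its own mouse is not stated, and the spread that the p-values measure is that between these samples and may be technical.

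PD-1, the product of Pdcd1, is an inhibitory receptor that T cells gain on activation and keep when antigen persists, as it does in chronic infection and in tumours. CD8 T cells under lasting antigen can enter a state called exhaustion, in which they hold several inhibitory receptors and the transcription factor TOX and make less of some cytokines. Within that state, less differentiated cells with features of memory progenitors are commonly distinguished from terminally differentiated cells with more PD-1, which is why a division by PD-1 level is of interest in leukaemia.

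RNA was measured on Affymetrix Mouse Gene arrays as log2 expression, and 22180 genes were tested, each by 1 probe set that is annotated to no other gene. Differences are PD-1hi minus PD-1int on the log2 scale, so that 1 is a 2-fold change, and are given ± the standard error of a limma fit with n = 4 arrays per subset. The words rose, fell and changed are kept for genes whose Benjamini-Hochberg adjusted p over all genes was under 0.05. Where 4 values are listed for a subset they follow replicates 1 to 4. Arrays correlated across genes with a Pearson r of 0.9904 to 0.9922 within PD-1hi, 0.9910 to 0.9934 within PD-1int and 0.9865 to 0.9914 between them, and no pair of arrays was identical. On these arrays a smaller share of cells that express a gene and less RNA of it per cell cannot be told apart.

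The sort genes behaved as follows. Pdcd1 lay at 10.43, 9.96, 9.75 and 10.32 in PD-1int and at 11.52, 11.47, 11.18 and 11.44 in PD-1hi, without overlap, against means of 6.80 in naive and 7.10 in memory cells. As PD-1 was the gate, this checks the labels and is not a finding. Il7r and Cd44, which both effector gates held to the same range, nevertheless fell in PD-1hi. Il7r was 7.57, 7.91, 7.14 and 7.35 in PD-1int and 4.48, 5.67, 4.60 and 4.90 in PD-1hi (-2.58 ± 0.20, adjusted p = 8.78e-07), with 12.97 in naive and 12.57 in memory cells. Cd44 was 8.91, 8.62, 8.45 and 8.78 against 7.94, 7.85, 7.85 and 8.10 (-0.76 ± 0.10, adjusted p = 0.000241).

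Genes of CD8 T-cell identity were high in both subsets. Cd8a ranged from 11.30 to 11.70 in PD-1int and from 11.19 to 11.59 in PD-1hi (0.04 ± 0.10, adjusted p = 0.925). Cd8b1 ranged from 12.47 to 12.69 and from 12.46 to 12.64 (-0.02 ± 0.07, adjusted p = 0.957). Cd3e, a chain of the T-cell receptor complex, ranged from 12.75 to 12.82 and from 12.86 to 12.96 (0.15 ± 0.06, adjusted p = 0.285).

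PD-1hi and PD-1int differed in 734 of the 22180 genes, 3.31%. Of these, 303 (1.37% of all genes) rose and 431 (1.94%) fell in PD-1hi, and 105 changed at least 2-fold, 47 up and 58 down. The median difference was 0.64 among the genes that rose, -0.56 among those that fell and 0.01 over all genes. In 671 of the 734 the 4 arrays of PD-1hi lay wholly above or below the 4 of PD-1int. Over all genes such a separation was seen upwards in 974 (4.39%) and downwards in 998 (4.5%), so that separated arrays alone are common. Single arrays bore on the counts: 470 genes differed without PD-1int replicate 1 and 474 without PD-1hi replicate 4.

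**Figure D1:**
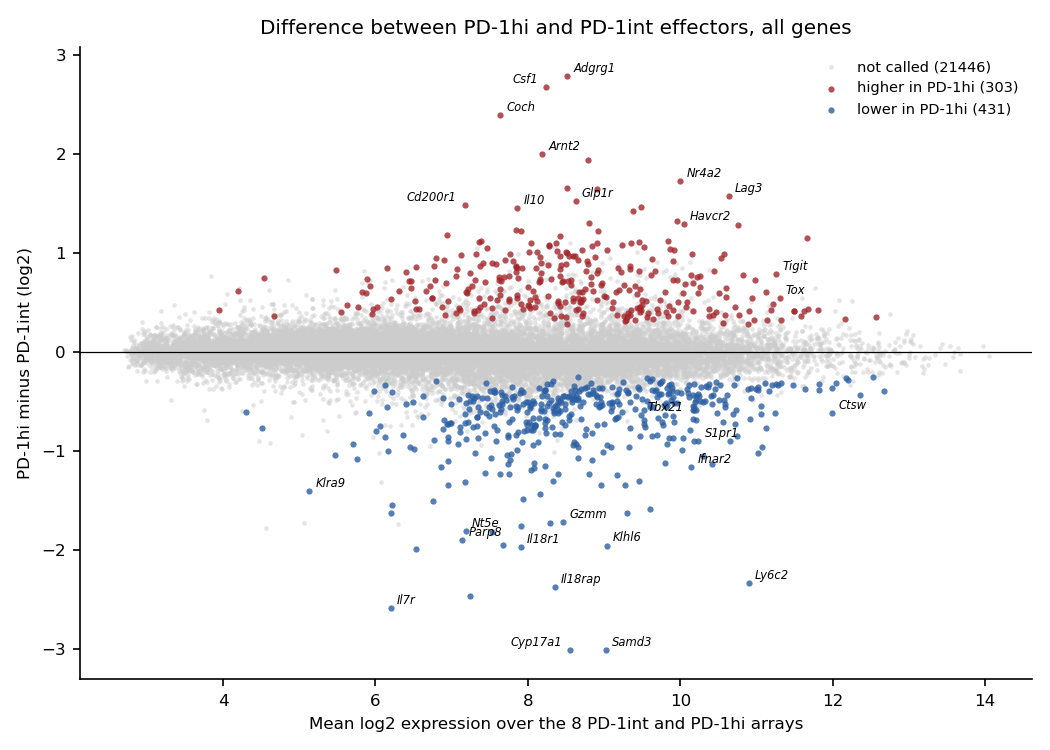
Each point is a gene, with its mean log2 expression over the 8 PD-1int and PD-1hi arrays on the horizontal axis and PD-1hi minus PD-1int (log2) on the vertical axis; red genes were higher in PD-1hi (303), blue genes lower (431) and grey genes not called. The largest rises, Adgrg1, Csf1 and Coch, reached 2.79, 2.68 and 2.39, and the largest falls, Samd3 and Cyp17a1, -3.01.

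The largest rise was that of Adgrg1, which encodes the adhesion G protein-coupled receptor GPR56. It was 6.65, 7.31, 7.13 and 7.37 in PD-1int and 9.90, 10.21, 9.35 and 10.18 in PD-1hi (2.79 ± 0.17, adjusted p = 1.37e-07). Every PD-1hi array lay above every PD-1int array, and the means in naive (6.01) and memory cells (5.98) were lower still. Csf1, which encodes macrophage colony-stimulating factor, was 6.60, 6.95, 7.17 and 6.91 against 9.72, 9.78, 8.60 and 10.23 (2.68 ± 0.23, adjusted p = 2.33e-06). Its PD-1int level was near those of naive (6.64) and memory cells (6.51), so among these subsets it stood out in PD-1hi.

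Coch, which encodes the extracellular matrix protein cochlin, had the same form with a wider spread. It was 6.61, 6.41, 6.21 and 6.55 in PD-1int and 9.08, 9.94, 6.82 and 9.50 in PD-1hi (2.39 ± 0.42, adjusted p = 0.00269). PD-1hi replicate 3 lay just above the PD-1int arrays, and the other PD-1hi arrays far above them. The same array was the lowest of the PD-1hi arrays for Adgrg1 and Csf1. Over the 734 genes, PD-1hi replicate 3 was the PD-1hi array nearest to PD-1int in 283 (38.6%), replicate 2 in 199, replicate 1 in 149 and replicate 4 in 103.

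The remaining genes among the 15 largest separated rises, which leave out antigen receptor segments, small RNAs and predicted loci, fell into several kinds. Arnt2, a bHLH-PAS transcription factor, rose by 2.00 ± 0.17 and the nuclear receptor Nr4a2 by 1.73 ± 0.17. Chn2, a GTPase-activating protein for Rac, rose by 1.64 ± 0.17, the sorting nexin Snx9 by 1.31 ± 0.13 and Neb, the giant actin-binding protein nebulin, by 1.43 ± 0.19. Glp1r, the receptor for glucagon-like peptide, rose by 1.53 ± 0.24, Itih5, a secreted hyaluronan-binding protein, by 1.46 ± 0.18 and Tnfrsf9, the costimulatory receptor CD137, by 1.32 ± 0.15. The others were Lag3, Cd200r1, Il10 and Havcr2, given below. Their adjusted p lay between 1.88e-06 for Arnt2 and 0.00678 for Il10, and none of the 15 lost its call when any of the 8 arrays was left out.

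Samd3 and Cyp17a1 fell furthest. Samd3 was 10.63, 10.56, 10.24 and 10.67 in PD-1int and 8.15, 7.64, 7.81 and 6.46 in PD-1hi (-3.01 ± 0.24, adjusted p = 9.62e-07). It was highest in memory cells, at 11.44, and lowest in naive cells, at 6.65. Cyp17a1, an enzyme of steroid hormone synthesis, was 10.53, 9.52, 9.83 and 10.37 in PD-1int and 7.01, 6.48, 7.35 and 7.36 in PD-1hi (-3.01 ± 0.23, adjusted p = 8.78e-07). Unlike Samd3 it was high in PD-1int only, with means of 5.50 in naive and 6.88 in memory cells.

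Both chains of the IL-18 receptor were among the next. Il18rap was 9.74, 9.65, 9.50 and 9.27 in PD-1int and 7.17, 7.46, 7.95 and 6.08 in PD-1hi (-2.37 ± 0.27, adjusted p = 4.53e-05). Il18r1 was 9.02, 9.42, 8.74 and 8.38 against 6.75, 7.14, 6.84 and 6.95 (-1.97 ± 0.16, adjusted p = 9.62e-07). Neither overlapped between the subsets, and both were highest in memory cells, at 9.996 and 10.86. Ly6c2, a surface antigen of memory and effector T cells, was 11.92, 12.66, 12.19 and 11.48 against 8.96, 10.87, 10.12 and 8.98 (-2.33 ± 0.32, adjusted p = 0.000277).

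Further large falls were in Klhl6, an adaptor of a ubiquitin ligase (-1.95 ± 0.15), Parp8, a member of the ADP-ribosyltransferase family (-1.90 ± 0.17), and the organic anion transporter Slco3a1 (-1.82 ± 0.18). Nt5e, the ectoenzyme CD73 that makes adenosine from AMP, fell by 1.81 on the log2 scale (SE 0.19), from 8.90, 8.11, 7.66 and 7.69 to 6.27, 6.18, 6.29 and 6.39. Cmpk2, an interferon-inducible nucleotide kinase, had a difference of -1.76 ± 0.15, the adhesion receptor Crtam -1.73 ± 0.18, the granule protease Gzmm -1.72 ± 0.12, the chitinase-like gene Chil5 -1.63 ± 0.17 and Itgax, the integrin CD11c, -1.63 ± 0.25. Parp8, Slco3a1, Nt5e and Klhl6 were higher in both naive and memory cells (9.57 to 11.56) than in PD-1int, where they had means of 8.09, 8.44, 8.09 and 10.01. None of the 15 largest separated falls lost its call when any of the 8 arrays was left out.

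**Figure D2:**
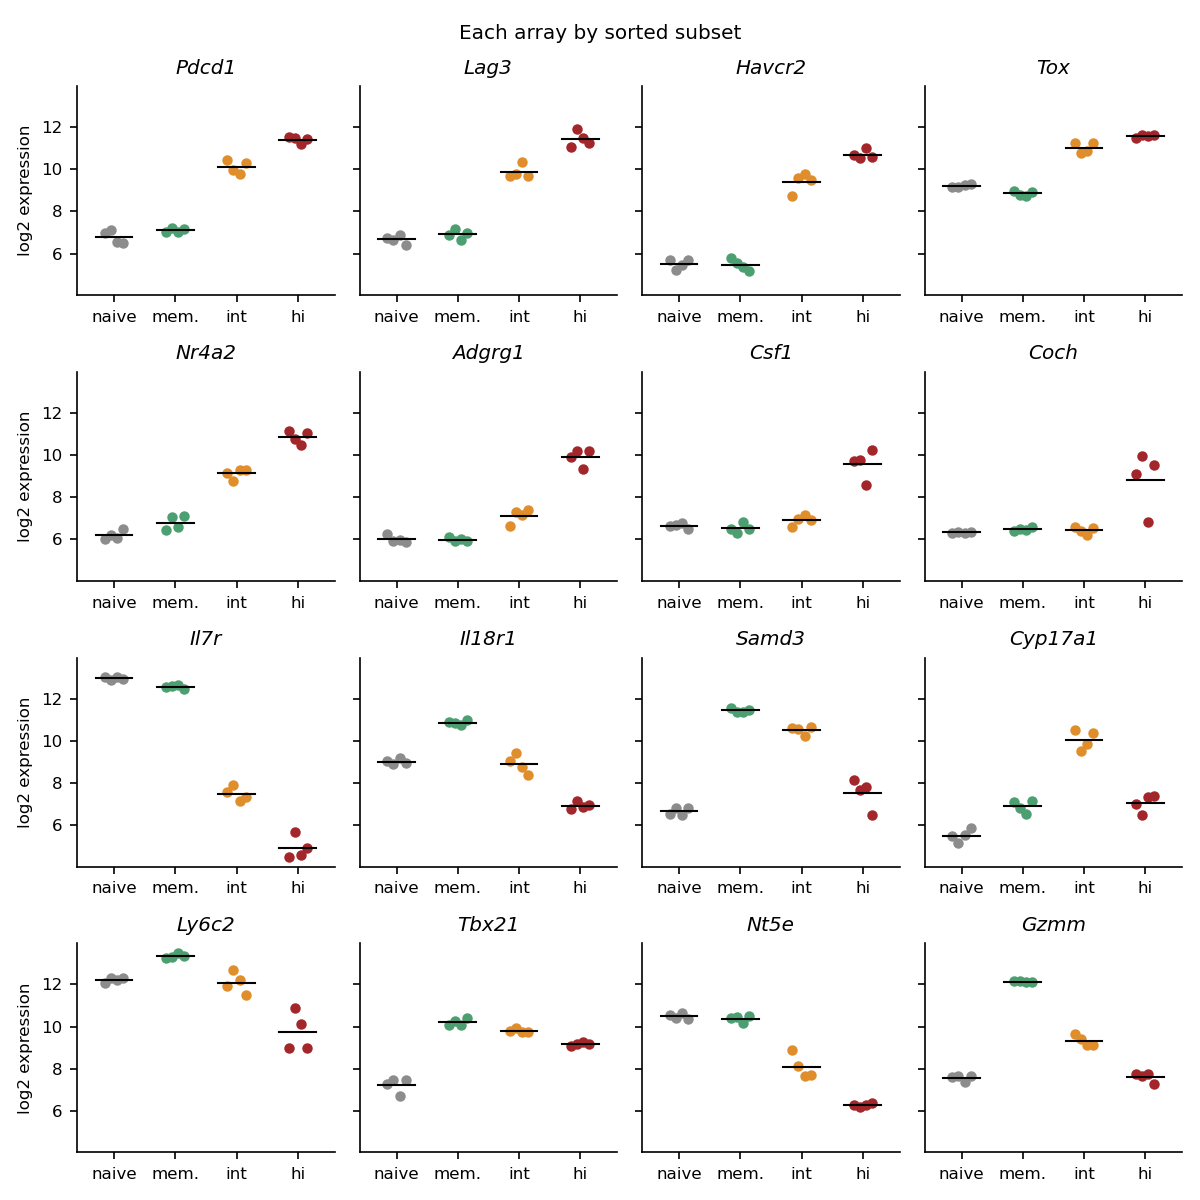
Log2 expression of 16 genes on every array, by subset (naive, memory, PD-1int and PD-1hi); points run from replicate 1 to 4 from left to right, bars are means of 4 arrays, and all panels share an axis. Csf1 and Coch are near their naive level in PD-1int, Samd3 and Gzmm are highest in memory cells, and Coch shows PD-1hi replicate 3 at 6.82.

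More inhibitory receptors rose than fell. Beside the counts of this and the following lists stand the shares over all genes, 1.37% that rose and 1.94% that fell. Counts at an unadjusted p under 0.05 stand beside 3145 of all 22180 genes under that cut in the limma fit, in either direction. Of the 17 genes on a list of inhibitory receptors and ligands, 8 rose, 2 fell and 7 did not pass, with a median difference of 0.51; without Pdcd1, the gate, 7 of 16 rose. The count of rises stayed at 8 or 9 when single arrays were left out. Lag3, a receptor for MHC class II, was 9.66, 9.75, 10.33 and 9.66 in PD-1int and 11.07, 11.89, 11.47 and 11.26 in PD-1hi (1.57 ± 0.17, adjusted p = 3.08e-05). Havcr2, which encodes TIM-3, was 8.75, 9.56, 9.78 and 9.50 against 10.67, 10.54, 10.99 and 10.59 (1.30 ± 0.19, adjusted p = 0.000518). Their naive means were 6.67 and 5.52, and neither overlapped between the effector subsets.

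Cd200r1, the receptor for CD200, was 6.18, 6.08, 5.97 and 7.496 in PD-1int and 7.65, 7.53, 8.26 and 8.22 in PD-1hi (1.48 ± 0.28, adjusted p = 0.00488). PD-1int replicate 4 came close to the lowest PD-1hi array. Cd244a, the SLAM-family receptor 2B4, rose by 1.04 ± 0.20, Ctla4 by 0.97 ± 0.13, Tigit by 0.79 ± 0.11 and Cd101 by 0.73 ± 0.13. Tigit was already high in PD-1int, at 10.78 to 11.04 against 11.60 to 11.76 in PD-1hi.

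Lair1, a collagen receptor, went the other way, with 9.63, 9.22, 9.45 and 9.67 in PD-1int and 8.79, 8.23, 8.88 and 8.05 in PD-1hi (-1.004 ± 0.17, adjusted p = 0.00157). Klrg1, a receptor for cadherins on short-lived effector cells, also fell (-0.90 ± 0.22, adjusted p = 0.0324), but its call was lost without PD-1int replicate 2, 3 or 4 or PD-1hi replicate 2, 3 or 4 (adjusted p 0.0604 to 0.103). Cd160 (0.51 ± 0.16, adjusted p = 0.107), Btla (0.26 ± 0.13, adjusted p = 0.403) and Cd96 (-0.03 ± 0.07, adjusted p = 0.916) did not pass, nor did Vsir, Lilrb4a, Cd274 and Pdcd1lg2.

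Exhaustion-associated transcription factors rose in 6 of 19 cases and fell in none (limma; 11 higher and 0 lower at an unadjusted p under 0.05), with a median difference of 0.45. Nr4a2, induced by antigen receptor signals, was 9.16, 8.79, 9.28 and 9.30 in PD-1int and 11.14, 10.78, 10.49 and 11.03 in PD-1hi (1.73 ± 0.17, adjusted p = 9.40e-06). Tox, the factor that marks and sustains exhausted T cells, was 11.23, 10.77, 10.86 and 11.26 against 11.47, 11.63, 11.56 and 11.64 (0.54 ± 0.10, adjusted p = 0.00619). Tox was high in both effector subsets, and its rise was smaller than that of Nr4a2, though no array overlapped. Its call was lost in a fit of the 8 effector arrays with the replicate number as a block (adjusted p = 0.0589).

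The AP-1 family factor Batf rose by 0.46 ± 0.09 (adjusted p = 0.00926, and 0.0565 in the 8 arrays with the block) and Maf by 0.93 ± 0.20 (adjusted p = 0.0131). Ikzf2, which encodes Helios, rose by 0.92 ± 0.20 (adjusted p = 0.0166) and Tox2 by 0.46 ± 0.11 (adjusted p = 0.0257). The Ikzf2 call was lost without PD-1int replicate 1 or 2 or PD-1hi replicate 1, 3 or 4 (adjusted p 0.0517 to 0.0583), and the Tox2 call without PD-1int replicate 1 or 2 or PD-1hi replicate 1, 2 or 4 (0.0587 to 0.100). Without PD-1int replicate 1, 4 of the 19 factors rose, and in a fit of the 8 effector arrays alone 8 did.

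Several well-known members did not pass. Eomes, a T-box factor of exhausted and memory cells, was 11.27, 11.14, 11.09 and 11.26 in PD-1int and 11.25, 11.39, 11.31 and 11.22 in PD-1hi (0.10 ± 0.09, adjusted p = 0.693), so the groups overlapped. Prdm1, which encodes BLIMP-1, was separated (9.001 to 9.66 against 9.93 to 10.48) with 0.83 ± 0.24 and an adjusted p of 0.0749. Nr4a1 had 0.45 ± 0.19 (adjusted p = 0.263) and Bhlhe40 0.48 ± 0.13 (adjusted p = 0.0605). Prdm1 and Bhlhe40 did pass in a fit of the 8 effector arrays alone, with and without the replicate number as a block.

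More genes of naive, quiescent and progenitor cells fell than rose in PD-1hi. Of 23 with a probe set, 11 fell, 1 rose and 11 did not pass, with a median of -0.40; without Il7r, which belongs to the gate, 10 of 22 fell. Lef1, a factor of the TCF family active in naive and progenitor T cells, was 10.22, 10.31, 10.03 and 9.89 in PD-1int and 9.22, 9.29, 9.41 and 9.20 in PD-1hi (-0.83 ± 0.09, adjusted p = 1.42e-05). Its mean was 12.33 in naive and 11.24 in memory cells, so PD-1int lay between memory cells and PD-1hi. The repressors Bach2 (-0.62 ± 0.12) and Bcl6 (-0.88 ± 0.12), the cytokine Ltb (-0.84 ± 0.10) and the IL-6 receptor chain Il6ra (-0.40 ± 0.08) fell with it. The Il6ra call was lost in a fit of the 8 effector arrays with the replicate number as a block (adjusted p = 0.0512).

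Id3 (-0.55 ± 0.14), Klf2 (-0.43 ± 0.10), Slamf6 (-0.34 ± 0.08), Dapl1 (-0.46 ± 0.10) and the chemokine Xcl1 (-1.07 ± 0.24) complete the falls beside Il7r, and each of these calls was lost on leaving out single arrays. For Slamf6 these were PD-1int replicates 1 and 2 and PD-1hi replicate 2 (adjusted p up to 0.0901), for Dapl1 PD-1int 2 and 4 and PD-1hi 4 (0.0574). For Klf2 they were PD-1int 1 and 4 and PD-1hi 1 and 4 (0.105), for Xcl1 PD-1int 1 and 4 and PD-1hi 2 and 4 (0.0772), and for Id3 every array but PD-1int 3 and PD-1hi 2 (0.112). Without PD-1hi replicate 4, 7 of the 23 fell. Actn1, an actin cross-linker, was the member that rose (0.85 ± 0.16, adjusted p = 0.00424); it was 7.26 to 7.65 in PD-1int, 7.80 to 8.77 in PD-1hi and 11.51 in naive cells. Ccr7, the homing receptor of naive cells, was -0.28 ± 0.15 (adjusted p = 0.436).

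Genes of effector and short-lived effector cells fell in 8 of 22 cases and rose in none (limma; 10 lower and 2 higher at an unadjusted p under 0.05), with a median of -0.20. Klrg1, Ly6c2 and Itgax, described above, are among the 8, since lists share members. Tbx21, which encodes T-bet, was 9.80, 9.93, 9.76 and 9.72 in PD-1int and 9.07, 9.18, 9.27 and 9.15 in PD-1hi (-0.63 ± 0.13, adjusted p = 0.0118). S1pr5, a receptor for sphingosine phosphate, was 7.74, 7.96, 8.16 and 7.25 against 6.85, 7.002, 7.002 and 6.79 (-0.87 ± 0.13, adjusted p = 0.000954). Neither gene overlapped, and both were also high in memory cells, at 10.20 and 8.01. Cx3cr1, the fractalkine receptor, fell by 0.70 on the log2 scale (SE 0.16), and its call was lost without PD-1int replicate 1 or PD-1hi replicate 4 (adjusted p 0.0562 and 0.0712). Klf3 (-0.38 ± 0.08) lost its call without the same arrays (up to 0.0532) and Ahnak (-0.47 ± 0.10) without PD-1int replicate 1 (0.0530), where 5 of the 22 fell.

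**Figure D3:**
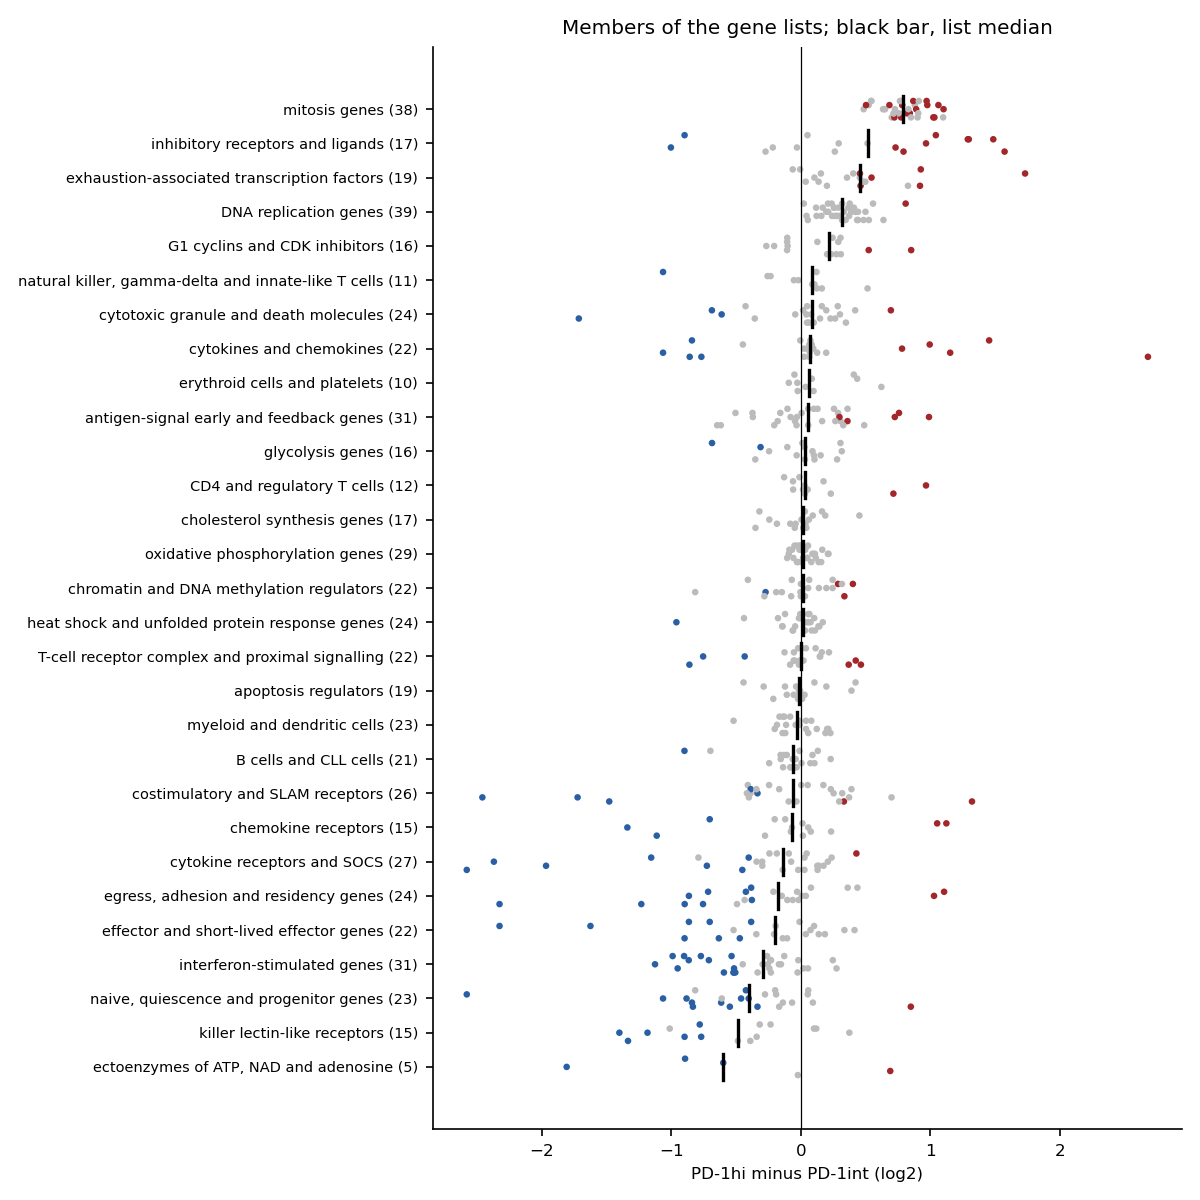
PD-1hi minus PD-1int (log2) for every member with a probe set of 29 gene lists, which are ordered by their median (black bar); red members rose, blue members fell, grey members did not pass, and the number of members is in brackets. All 38 mitosis genes lie above zero, and the oxidative phosphorylation and apoptosis lists hold no called gene.

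Of 24 cytotoxic molecules 1 rose, 3 fell and 20 did not pass, with a median of 0.08. The 4 are 16.7% of the list, where 3.31% of all genes were called. Dim genes are part of that 3.31%, here and beside the other lists. Without the 40% dimmest genes the share is higher, with 885 called in place of 734 from fewer genes. Gzmb, the granzyme B gene, was 12.77 to 13.16 in PD-1int and 12.97 to 13.16 in PD-1hi (0.10 ± 0.17, adjusted p = 0.875), Gzmk 0.06 ± 0.19 (0.941), Gzma -0.43 ± 0.21 (0.368) and the perforin gene Prf1 0.26 ± 0.11 (0.241). None of these passed the test, and the members that did were others.

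Gzmm, the granzyme M gene, was 9.65, 9.42, 9.10 and 9.10 in PD-1int and 7.73, 7.66, 7.75 and 7.28 in PD-1hi (-1.72 ± 0.12, adjusted p = 7.33e-07). Its mean of 12.13 in memory cells was the highest of the subsets, and its PD-1hi level was near the 7.55 of naive cells. Ctsw, a cathepsin of cytotoxic cells, was -0.61 ± 0.08 and Lamp1, the granule membrane protein CD107a, -0.69 ± 0.14. Serpinb6b, an inhibitor of granule proteases, rose by 0.69 ± 0.14.

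Cytokines and chemokines split. Of 22, 5 rose and 4 fell, and the median was 0.07. Il10, an anti-inflammatory cytokine, was 6.14, 7.72, 7.67 and 7.02 in PD-1int and 8.68, 8.87, 8.91 and 7.90 in PD-1hi (1.45 ± 0.28, adjusted p = 0.00678). Ifng, the interferon gamma gene, was 9.65, 9.86, 10.72 and 10.06 against 10.88, 10.87, 11.26 and 11.26 (0.99 ± 0.20, adjusted p = 0.00716). Neither overlapped, although PD-1int replicate 3 came close to the lowest PD-1hi array for Ifng.

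The chemokines Ccl3 (1.15 ± 0.27, adjusted p = 0.0250) and Ccl4 (0.78 ± 0.21, adjusted p = 0.0477), which attract leukocytes, rose as Csf1 did. The Ccl3 call was lost without PD-1int replicate 1 or 2 or PD-1hi replicate 2 or 4 (adjusted p up to 0.0840), and the Ccl4 call without any array but PD-1int 3 and PD-1hi 1 (0.160). Il2, the T-cell growth factor, was 4.98, 5.13, 4.38 and 5.10 in PD-1int and 4.36, 4.10, 4.11 and 3.94 in PD-1hi (-0.77 ± 0.16, adjusted p = 0.0112). These values lie near the lower end of the scale, where differences are compressed. Tnfsf14, which encodes LIGHT, fell (-0.86 ± 0.19), its call being lost without PD-1int replicate 1 or PD-1hi replicate 1 (adjusted p up to 0.0599), while Tnf was -0.45 ± 0.13 (adjusted p = 0.0832).

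Chemokine receptors rose in 2 of 15 and fell in 3 of 15 cases, together 33.3% of the list, where 3.31% of all genes were called. Cxcr6, the receptor of CXCL16 on tissue-resident and effector cells, was 8.93, 9.93, 9.32 and 8.91 in PD-1int and 10.10, 10.76, 10.26 and 10.47 in PD-1hi (1.12 ± 0.19, adjusted p = 0.00202). Cxcr3, the receptor of interferon-induced chemokines, was 10.20, 10.58, 10.46 and 10.22 against 8.63, 9.63, 9.82 and 8.92 (-1.11 ± 0.21, adjusted p = 0.00634). The subsets did not overlap in either. Ccr2 fell (-1.34 ± 0.28, adjusted p = 0.00969) with PD-1hi replicate 3, at 9.40, inside the PD-1int range of 9.31 to 9.84 and the others at 7.63 to 8.44. The Ccr2 call was lost in a fit of the 8 effector arrays alone (adjusted p = 0.0594). Ccrl2 rose by 1.05 ± 0.27 with overlapping arrays, a call that was lost without any array but PD-1hi replicate 3 (adjusted p up to 0.128).

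Genes of egress and adhesion were lower in PD-1hi in 9 of 24 cases and higher in 2, with a median of -0.18. Cd44, which belongs to the gate, is on the list, and without it 8 of 23 fell. S1pr1, the receptor that lets T cells leave lymphoid organs, was 10.66, 10.89, 10.64 and 10.56 in PD-1int and 9.65, 9.94, 9.91 and 9.66 in PD-1hi (-0.90 ± 0.10, adjusted p = 2.42e-05). Itgb1, the beta chain of VLA integrins, was 9.39, 9.69, 9.26 and 9.32 against 8.35, 8.42, 8.16 and 7.81 (-1.23 ± 0.17, adjusted p = 0.000241). Every PD-1hi array of both genes lay below every PD-1int array. Gpr183, an oxysterol receptor that guides cells within lymphoid tissue, was -0.72 ± 0.16 and S1pr4 -0.38 ± 0.10. The Gpr183 call was lost without PD-1int replicate 1 or PD-1hi replicate 4 (adjusted p 0.0732 in both) and the S1pr4 call without any array but PD-1int 4 and PD-1hi 2 (up to 0.124). Without PD-1int replicate 1, 5 of the 24 fell. The G-protein regulators Rgs16 (1.11 ± 0.17, adjusted p = 0.000738) and Rgs1 (1.03 ± 0.22, adjusted p = 0.0118), which damp chemoattractant receptors, rose.

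Killer lectin-like receptors, which natural killer cells share with some memory and effector CD8 cells, fell in 6 of 15 cases and rose in none (limma; 8 lower and 0 higher at an unadjusted p under 0.05), with a median of -0.49. Klra9 was 4.83, 5.99, 6.19 and 6.32 in PD-1int and 4.36, 4.72, 4.38 and 4.26 in PD-1hi (-1.40 ± 0.25, adjusted p = 0.00336). Klrb1f was 9.32, 10.08, 10.07 and 10.32 against 8.59, 7.80, 9.11 and 8.96 (-1.34 ± 0.28, adjusted p = 0.0122). The PD-1hi level of Klra9 was near the 4.24 of naive cells, and memory cells had 8.13. Klra, Klrb1 and Klrc genes are families of close relatives, so probes may not separate their members.

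The calls of Klrk1, which encodes NKG2D (-0.78 ± 0.21), Klrc1 (-0.77 ± 0.20), Klrc2 (-1.19 ± 0.32) and Klrg1 were each lost on leaving out most of the 8 arrays in turn. Klrk1 lost its call without any array but PD-1hi 1 and 3 (adjusted p up to 0.111), Klrc1 without any but PD-1int 1 and PD-1hi 3 (0.143) and Klrc2 without any but PD-1hi 3 (0.161). Without PD-1int replicate 2, 2 of the 15 fell, and 3 in a fit of the 8 effector arrays alone or after median centring. The summed linear level of 11 markers of innate-like, gamma-delta and natural killer cells was 14277 to 14853 in PD-1int and 14802 to 15447 in PD-1hi, with 6 above and 5 below zero. Of the 11, Xcl1 fell (9.09%, where 3.31% of all genes were called), in the direction of the lectin-like receptors. The defining natural killer marker Ncr1 had means of 5.75 in PD-1int and 5.87 in PD-1hi, under the array medians of 6.39 to 6.49. The part of such cells in these falls was not tested.

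Among costimulatory and SLAM-family receptors 2 of 26 rose and 5 fell. Tnfrsf9 rose, from 9.30, 8.99, 9.30 and 9.58 to 10.76, 10.52, 10.25 and 10.92. Cd86, a ligand of CD28 and CTLA-4, fell from 8.77, 8.83, 8.59 and 8.50 to 6.75, 7.56, 7.80 and 6.65 (-1.48 ± 0.28, adjusted p = 0.00522), and Ly9 by 0.39 on the log2 scale (SE 0.07), a call lost in the 8 effector arrays with the block (adjusted p = 0.0550). Cd226, the activating receptor that competes with TIGIT, had a large and uneven fall. It was 7.81, 9.79, 8.94 and 7.34 in PD-1int and 4.72, 8.20, 6.14 and 4.97 in PD-1hi (-2.46 ± 0.58, adjusted p = 0.0227). Replicate 2 was the highest array of both subsets, the groups overlapped, and the call was lost without PD-1int replicate 2 or 3 or PD-1hi replicate 1 or 4 (adjusted p 0.0676 to 0.0850). Sh2d2a, the T-cell adaptor TSAd, rose by 0.33 ± 0.07, a call lost without PD-1hi replicate 4 (adjusted p = 0.0583).

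Itgax and Cd86 are also expressed by dendritic cells. Of 23 markers of myeloid and dendritic cells none changed in the limma fit, and 2, Itgam and Xcr1, were lower at an unadjusted p under 0.05. At the 3.31% called over all genes a list of this size holds few calls or none. The summed linear level of the list was 5132 to 5670 in PD-1int and 4866 to 6042 in PD-1hi. The defining markers Lyz2 and Csf1r had means of 6.203 and 6.38 in PD-1int and 6.43 and 6.58 in PD-1hi.

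Cytokine receptors and SOCS genes fell in 7 of 27 cases and rose in 1. Without Il7r, which belongs to the gate, 6 of 26 fell. Apart from Il7r and the IL-18 receptor chains, Ifnar2, a chain of the type I interferon receptor, fell. It was 10.79, 10.78, 10.67 and 10.64 in PD-1int and 9.43, 9.77, 9.70 and 9.36 in PD-1hi (-1.16 ± 0.10, adjusted p = 1.57e-06), without overlap. Tgfbr3, a coreceptor for TGF-beta, was -0.73 ± 0.15 (adjusted p = 0.0106, but 0.0537 when only the 8 effector arrays were fitted) and Il17ra -0.45 ± 0.11, and Il6st, the shared signalling chain of the IL-6 family, rose by 0.43 ± 0.10. The Il17ra call was lost without PD-1int replicate 1, 2 or 3 or PD-1hi replicate 1 or 4 (adjusted p up to 0.0804), and the Il6st call without any array but PD-1int 2 and PD-1hi 3 (0.0817).

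Genes downstream of interferon were lower too. Of 31 interferon-stimulated genes with a probe set 13 fell, none rose (limma; 16 lower and 2 higher at an unadjusted p under 0.05) and 27 lay below zero, with a median of -0.30. The count of 13 was the same without each of the 8 arrays, and it was 11 to 14 under the other settings, lowest in the 8 effector arrays with the replicate block. Oas3, a sensor of double-stranded RNA, was 8.30, 8.35, 8.23 and 8.35 in PD-1int and 6.98, 7.35, 7.13 and 7.25 in PD-1hi (-1.13 ± 0.14, adjusted p = 9.51e-05). Irf7, the transcription factor that amplifies the response, was 10.52, 10.12, 10.27 and 10.43 against 9.07, 9.73, 9.65 and 9.42 (-0.87 ± 0.13, adjusted p = 0.000573). Neither overlapped.

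Usp18, the protease that removes ISG15 and damps the receptor, was -0.99 ± 0.12, Rtp4 -0.95 ± 0.11, Oasl1 -0.71 ± 0.12 and Irf9, the DNA-binding part of the complex ISGF3, -0.54 ± 0.07. Ifit1 (-0.90 ± 0.18), Mx1 (-0.77 ± 0.15), Irgm1 (-0.60 ± 0.11), Irgm2 (-0.52 ± 0.11), Rsad2 (-0.52 ± 0.10), Bst2 (-0.52 ± 0.09) and Xaf1 (-0.51 ± 0.10) are the others that fell. Of these, Ifit1 lost its call in the fit of the 8 effector arrays (adjusted p = 0.0682), and Mx1 (0.0581), Rsad2 (0.0504) and Bst2 (0.0555) lost it there with the block. The mean of the list was 8.79, 8.71, 8.75 and 8.83 on the PD-1int arrays, 8.26, 8.36, 8.48 and 8.42 on the PD-1hi arrays, 8.79 to 8.95 in memory and 9.02 to 9.33 in naive cells. PD-1hi arrays had the lowest list means, although Mx1 itself was lower in naive cells (6.17) than in PD-1hi (6.4999). Stat2 was -0.45 ± 0.13 (adjusted p = 0.0819). It passed with the replicate block over all 16 arrays and in the 8 effector arrays, with and without the block.

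Promoters of these genes were read from RefSeq (GRCm38.p6), in windows of 300 bases around the start of a gene, and searched on both strands for TTTC followed by any 2 bases and a further TTTC, the letters of the interferon-stimulated response element. It was found in 54.5% of the 11 windows of interferon-stimulated genes that fell, in 52.9% of the 17 windows of list members that did not pass, in 6.64% of windows of all genes that fell and in 3.3% of all 20611 windows. The list members that fell and those that did not pass thus held it at like shares. A match is a description of letters. The stretches below, from 3 of the genes that fell, show it in capitals on the printed strand, 5′ to 3′.
Oas3 (chr5:120777710-120777749, minus strand): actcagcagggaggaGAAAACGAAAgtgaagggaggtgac
Ifit1 (chr19:34640770-34640828, plus strand): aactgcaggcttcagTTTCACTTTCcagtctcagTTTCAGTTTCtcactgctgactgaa
Irgm2 (chr11:58214898-58214937, plus strand): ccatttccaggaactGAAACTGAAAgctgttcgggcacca

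Mitosis genes were higher in PD-1hi as a group. Of 38 with a probe set all 38 lay above zero, with a median of 0.79, 37 had an unadjusted p under 0.05 in the limma fit, and 15 rose after adjustment over all genes. In 35 the arrays of the subsets did not overlap, where 4.39% of all genes were separated upwards. The mean of the list was 8.51, 9.02, 8.80 and 8.95 on the PD-1int arrays and 9.84, 9.58, 9.40 and 9.63 on the PD-1hi arrays, against 7.22 to 8.29 in memory and 6.44 to 6.54 in naive cells. PD-1int replicate 1 was the lowest and PD-1hi replicate 1 the highest of the effector arrays.

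Prc1, a crosslinker of spindle microtubules, was 8.58, 9.22, 9.15 and 9.05 in PD-1int and 10.22, 10.19, 9.74 and 10.09 in PD-1hi (1.06 ± 0.21, adjusted p = 0.00852). The checkpoint kinase Ttk was 7.75, 8.01, 7.47 and 8.07 against 9.14, 9.12, 8.80 and 8.64 (1.10 ± 0.22, adjusted p = 0.00800). The kinesin Kif20a (0.89 ± 0.17) and the kinetochore protein Cenpf (0.87 ± 0.17) also rose, and neither they nor Prc1 and Ttk lost the call when single arrays were left out. Mki67, the proliferation antigen Ki-67, was 11.16 to 11.63 in PD-1int and 11.98 to 12.24 in PD-1hi, with 0.64 ± 0.24 and an adjusted p of 0.183, and Top2a had 0.85 ± 0.24 (0.0694). Both passed in a fit of the 8 effector arrays alone, with and without the replicate number as a block. The list differs strongly between the memory arrays, which share the estimate of the spread.

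How many members passed depended on the arrays and the fit. In a fit of the 8 effector arrays alone 29 of the 38 rose, after median centring of the arrays 10, and without PD-1int replicate 1 it was 4. The Kif2c call (0.72 ± 0.16) was lost without PD-1int replicate 1 (adjusted p = 0.0525), the Hmmr call (0.98 ± 0.21) without that array or PD-1hi replicate 1 (up to 0.0577), and the Kif18b call (0.82 ± 0.21) without any array but PD-1hi 3 (0.117).

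The DNA replication genes differed less. All 39 with a probe set lay above zero with a median of 0.32, and 22 had an unadjusted p under 0.05 in the limma fit. In 13 the arrays of the subsets did not overlap, where 4.39% of all genes were separated upwards. After adjustment over all genes 1 rose (2.56%, where 3.31% of all genes were called). It was Rrm1, a subunit of ribonucleotide reductase (0.81 ± 0.20, adjusted p = 0.0277 in the limma fit). That call was lost without PD-1int replicate 1 or 4 or PD-1hi replicate 1, 2 or 4 (adjusted p up to 0.0965). The list mean was 9.05 to 9.20 on the PD-1int arrays and 9.32 to 9.65 on the PD-1hi arrays. In the fit of 8 arrays 5 of them rose.

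Of 16 G1 cyclins and CDK inhibitors 2 rose, both inhibitors. Cdkn1a, which encodes p21, was 8.69, 8.68, 8.93 and 8.74 in PD-1int and 9.88, 8.89, 9.74 and 9.93 in PD-1hi (0.85 ± 0.17, adjusted p = 0.00713), with PD-1hi replicate 2 inside the PD-1int range. Cdkn2c, which encodes p18, rose by 0.52 ± 0.14, a call that was lost without any array but PD-1hi 2 (adjusted p up to 0.170). Myc was -0.65 ± 0.19 (adjusted p = 0.0706). It passed with the replicate block over all 16 or the 8 effector arrays and without the 40% dimmest genes. It also passed without PD-1int replicate 2 or PD-1hi replicate 1.

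**Figure D4:**
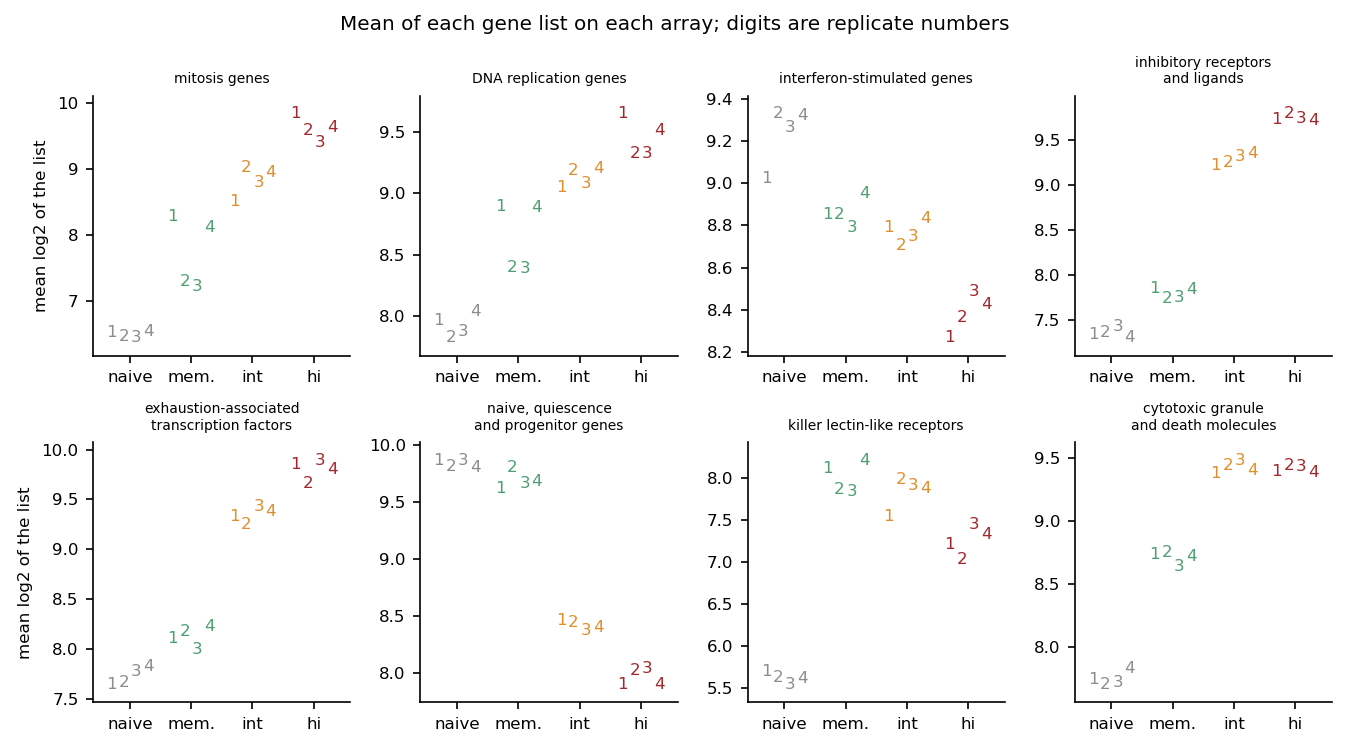
Mean log2 expression of the members of 8 gene lists on each array, by subset, with each digit the replicate number of an array and a separate vertical axis in each panel. The mitosis list runs from 6.44 to 6.54 in naive cells to 9.40 to 9.84 in PD-1hi, the interferon-stimulated list is lowest in PD-1hi, and the cytotoxic list is 9.38 to 9.49 in PD-1int and 9.39 to 9.44 in PD-1hi.

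The promoters of mitosis genes commonly carry a cell-cycle homology region, here searched as TTTGAA on both strands, and a CCAAT box. TTTGAA was found in 15 of the 15 windows of the 13 mitosis genes that rose and had a window, in 75% of the 20 windows of members that did not pass and in 15.4% of all windows. CCAAT was found in 60% of the first, in 80% of the second and in 37.7% of all windows. Among genes that rose and are not on the mitosis list TTTGAA was found in 15.3% of windows, the level of all genes. Likewise TGANTCA, the letters of an AP-1 site, was in 7.09% of the windows of genes that rose and in 7.26% of all, and AAAGGTCA, the letters of an NR4A site, in 0.676% and 1.39%. The stretches below, from 3 of the mitosis genes that rose, show the CCAAT box and the cell-cycle homology region in capitals, either as searched or as their reverse complement, 5′ to 3′.
Prc1 (chr7:80294399-80294466, plus strand): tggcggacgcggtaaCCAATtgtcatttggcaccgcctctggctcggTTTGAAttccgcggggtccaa
Ttk (chr9:83834609-83834716, plus strand): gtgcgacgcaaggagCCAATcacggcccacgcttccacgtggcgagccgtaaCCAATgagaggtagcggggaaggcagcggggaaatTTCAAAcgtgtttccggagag
Kif18b (chr11:102925101-102925192, minus strand): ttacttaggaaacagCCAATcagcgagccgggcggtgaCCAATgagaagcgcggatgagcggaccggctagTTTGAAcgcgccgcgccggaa

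Genes near the T-cell receptor were divided. Of 22 members of the receptor complex and proximal signalling 3 rose and 3 fell, and the median was 0.00. The kinase Zap70 rose from 10.93, 10.95, 11.08 and 10.96 to 11.36, 11.42, 11.29 and 11.54 (0.42 ± 0.08, adjusted p = 0.00575, and 0.0618 in the 8 effector arrays with the block), and Ubash3b, a phosphatase that restrains it, by 0.46 ± 0.10. The ubiquitin ligase Cblb rose by 0.37 ± 0.08, a call lost without PD-1int replicate 1 or 2 or PD-1hi replicate 4 (adjusted p up to 0.0703). Ptpn6, the phosphatase SHP-1, fell from 10.51, 10.15, 10.21 and 10.27 to 9.49, 9.44, 9.38 and 9.37 (-0.86 ± 0.09, adjusted p = 1.11e-05). The adaptor Sit1 (-0.76 ± 0.14) and the diacylglycerol kinase Dgka (-0.43 ± 0.06) fell as well, and these negative regulators of signalling therefore moved in both directions.

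Genes induced early by antigen signals rose in 5 of 31 cases and fell in none (limma; 9 higher and 3 lower at an unadjusted p under 0.05), with a median of 0.06. Egr1 was 8.32, 8.28, 8.78 and 8.41 in PD-1int and 9.07, 9.004, 9.43 and 9.32 in PD-1hi (0.76 ± 0.12, adjusted p = 0.00148). Dusp1, a phosphatase of MAP kinases, was 9.85, 9.30, 9.49 and 9.99 against 10.68, 10.82, 10.41 and 10.68 (0.99 ± 0.17, adjusted p = 0.00218). Both were separated between the subsets. Dusp6 (0.72 ± 0.17), Nab2 (0.36 ± 0.09) and Nfkbia (0.30 ± 0.08) rose in calls that were lost on leaving out any of several arrays. Dusp6 lost its call without PD-1int replicate 1 or PD-1hi replicate 2 or 4 (adjusted p up to 0.0823), Nab2 without any array but PD-1int 1 and PD-1hi 3 (0.139) and Nfkbia without any but PD-1int 3 and PD-1hi 2 (0.138). Without PD-1hi replicate 4, 2 of the 31 rose.

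The ectoenzymes that handle extracellular ATP and adenosine had opposite directions. Entpd1, which encodes CD39 and breaks down ATP, was 9.89, 9.41, 9.68 and 9.88 in PD-1int and 10.35, 10.31, 10.43 and 10.54 in PD-1hi (0.69 ± 0.14, adjusted p = 0.00800). Nt5e, the next enzyme of that path, fell, as did the ATP receptors P2rx7 (-0.90 ± 0.16, adjusted p = 0.00266) and P2rx4 (-0.60 ± 0.14, adjusted p = 0.0249). The P2rx4 call was lost without PD-1int replicate 2 or 4 or PD-1hi replicate 1, 2 or 4 (adjusted p up to 0.0820). With 5 members measured, 1 rose and 3 fell.

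In metabolic and stress lists the counts were small. At the 3.31% called over all genes lists of this size hold few calls or none. None of 29 oxidative phosphorylation, 17 cholesterol synthesis or 19 apoptosis genes passed in the limma fit (2, 2 and 3 at an unadjusted p under 0.05). Over all 22180 genes 3145 were under that unadjusted cut. Of 16 glycolysis genes 2 (12.5%) fell, Pdk1, the kinase that holds back pyruvate oxidation (-0.69 ± 0.10, adjusted p = 0.000457), and Pfkp, a phosphofructokinase (-0.31 ± 0.08), whose call was lost without PD-1int replicate 1 or 4 or PD-1hi replicate 2, 3 or 4 (adjusted p up to 0.119). Of 24 heat shock and unfolded protein response genes the chaperone Hspa1a fell (-0.96 ± 0.26), lost without any array but PD-1int 2 and 3 (up to 0.159). Of 22 chromatin regulators 4 (18.2%) were called. Dnmt3a (0.29 ± 0.08), Suz12 (0.40 ± 0.11) and Hdac7 (0.34 ± 0.09) rose and Chd7 (-0.27 ± 0.07) fell, and each lost its call without 7 of the 8 arrays in turn (the exceptions being PD-1int 3, PD-1hi 2, PD-1hi 3 and PD-1int 2), with adjusted p up to 0.163. In the fit of the 8 effector arrays none of the 4 passed.

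Markers of other cells in the spleen were measured as well. Of 21 markers of B cells and CLL cells 1 fell (4.76%, where 3.31% of all genes were called), namely Cd22, a sialic acid-binding lectin of B cells. It was 7.94, 7.88, 8.01 and 8.29 in PD-1int and 6.96, 7.07, 7.04 and 7.45 in PD-1hi (-0.90 ± 0.12, adjusted p = 0.000241). Its means were 9.50 in memory and 6.28 in naive cells. The defining B-cell markers Cd79a (5.83 to 6.49 against 5.75 to 6.46) and Ms4a1 (5.25 to 6.17 against 5.18 to 5.57) overlapped, and lay near or under the array medians of 6.39 to 6.49. Ighm, the brightest member, was 10.10, 9.36, 9.01 and 10.11 against 9.31, 8.56, 8.27 and 9.64 (-0.70 ± 0.26, adjusted p = 0.182), with means of 12.63 in naive and 12.31 in memory cells. Ighm did pass in the 8 effector arrays with the replicate block. The summed linear level of the list was 2298 to 3182 in PD-1int and 1892 to 2573 in PD-1hi, and its part in the fall of Cd22 was not tested.

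Among 12 markers of CD4 and regulatory T cells Ctla4 and Ikzf4, which encodes the Ikaros-family factor Eos (0.71 ± 0.14, adjusted p = 0.00833), rose. They are 16.7% of the list, where 3.31% of all genes were called. The summed linear level of the list was 1787 to 1877 in PD-1int and 1987 to 2464 in PD-1hi. The defining genes Cd4 (means of 6.02 and 6.05) and Foxp3 (6.23 and 6.17) did not pass. None of 10 erythroid and platelet markers changed in the limma fit (1, Car2, was higher at an unadjusted p under 0.05), and their summed level was 1079 to 1365 in PD-1int and 1274 to 1381 in PD-1hi.

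The naive and memory arrays enter neither side of the comparison and show where these genes stand outside it. They do share the estimate of each gene's spread, as all arrays were fitted together. Of the 303 genes higher in PD-1hi, 101 (33.3%) were also higher in memory than in naive cells and 29 (9.57%) lower, where 6.7% and 5.02% of all genes were. Of the 431 genes lower in PD-1hi, 103 (23.9%) were higher and 81 (18.8%) lower in memory cells. The median memory minus naive difference was 0.19 for the first, 0.03 for the second and -0.02 for all genes. Both contrasts use the same spread for a gene, so a gene with a small spread is more easily called in both. Dim genes are also part of the shares over all genes. How much of the excess over those shares comes from these points was not tested.

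**Figure D5:**
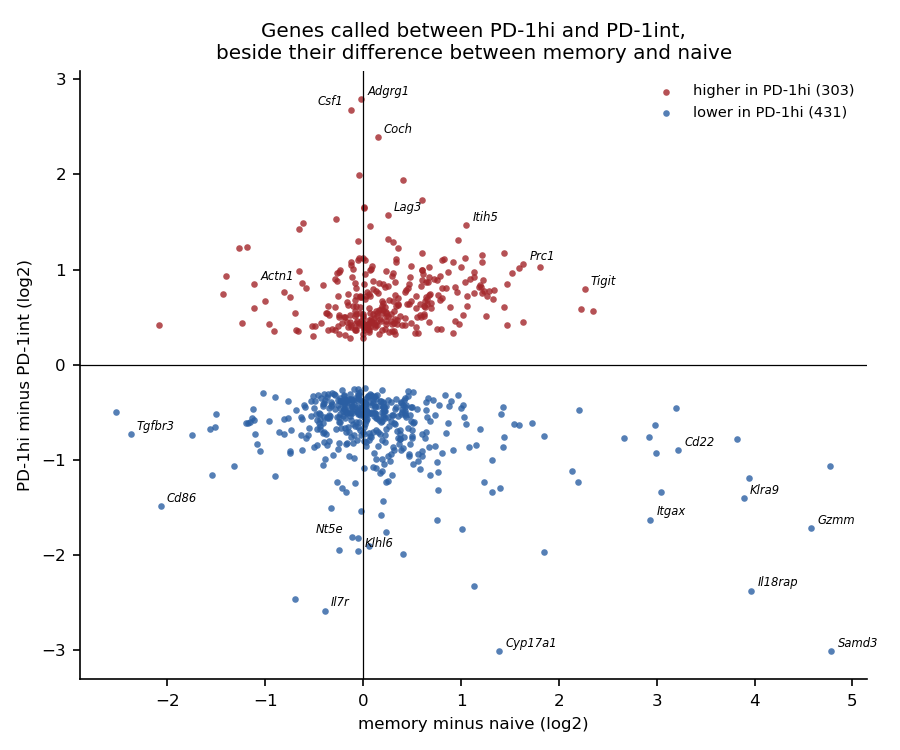
Genes called between PD-1hi and PD-1int, with memory minus naive (log2) on the horizontal axis and PD-1hi minus PD-1int (log2) on the vertical axis; red genes were higher in PD-1hi (303) and blue genes lower (431). Samd3, Gzmm, Il18rap and Klra9 lie at the lower right, high in memory cells and low in PD-1hi, and Adgrg1, Csf1 and Coch lie near zero on the horizontal axis.

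Named genes that fell in PD-1hi lay on both sides, and the following were chosen after their values were seen. On the log2 scale Samd3 was 4.78 higher in memory than in naive cells, Xcl1 4.77, Gzmm 4.58, Il18rap 3.96, Klrc2 3.94, Klra9 3.89, Klrk1 3.82, Cd22 3.22 and Itgax 2.93. Cd86 and Tgfbr3 were lower in memory cells, at -2.07 and -2.37. Among the genes that rose, Adgrg1 (-0.02), Csf1 (-0.12) and Coch (0.15) did not separate memory from naive cells, while Tigit (2.26) and Prc1 (1.64) did. Il7r, the gate gene of memory cells, was also higher in PD-1int than in PD-1hi, and the part that cells with memory-type expression in the PD-1int gate have in these falls was not tested.

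Of the 303 genes that rose, PD-1hi had the highest mean of the 4 subsets in 283 (93.4%) and naive cells the lowest in 189. For 250 of them the means ran upwards from naive through PD-1int to PD-1hi. Of the 431 that fell, PD-1hi had the lowest mean in 351 (81.4%), and the highest was in naive cells for 176, in memory cells for 160 and in PD-1int for 95. Over all genes PD-1hi was highest in 28.7% and lowest in 26.8%. Part of these shares follows from the choice of the genes, which places PD-1hi above or below PD-1int.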

How the data were processed

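The deposited values are log2 expression per probe set of an Affymetrix Mouse Gene 2.0 ST array, as the authors deposited them; Affymetrix Power Tools was used, per the submitters' processing notes. Not given in the sources used here are its version, annotation release, background correction and summarisation. The log2 scale was read from the range of 2.35 to 14.13. Array medians lay between 6.39 and 6.49. Per the labels' protocols, RNA from an RNeasy Micro kit was amplified and biotin-labelled with the WT Pico kit.

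Of 41345 probe sets, 23521 have 1 gene symbol in the platform annotation, 1814 several and 16010 none; only the first were used. For the 1082 genes with several, the probe set with the highest mean over 16 arrays was taken, giving 22180 genes. Dim genes were kept, and detection calls were not used here. All columns mapped to a sample.

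The 16 arrays were fitted together with limma 3.58.1 (R 4.3.3), 1 mean per subset and no block, with eBayes; the contrasts were PD-1hi minus PD-1int and memory minus naive. The precision is limited by 4 arrays per subset, and the median standard error was 0.10. In simulated data with 22180 genes the fit of PD-1hi against PD-1int recovered 56 of 100 genes with a difference of 0.5 and 96 of 100 with a difference of 1. Of the 21980 unchanged genes 5 were called. The simulated noise was independent between genes, with 1 spread per gene in all subsets. In the arrays the mitosis genes moved together, and spreads differed between subsets (Mki67, SD 0.69 in memory and 0.11 in PD-1hi). The simulated rates therefore hold for that simpler setting only. Summed linear levels are sums of 2 raised to the log2 value. Promoter windows are those of RefSeq for GRCm38.p6, found for 16990 genes.

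Genes named are the 15 largest rises and falls among changed genes with separated arrays (without antigen receptor segments, small RNAs and predicted loci), Cd44, Il7r, Pdcd1 and Cd8a, every changed inhibitory receptor and exhaustion-associated factor, and up to 6 changed members of every other list by adjusted p. Chosen after their values were seen were a further 44 genes, among them Ccl3, Ccl4, Rgs1, Gpr183, S1pr4, Bach2, Klf2, Slamf6, Id3, Dapl1, Il17ra, Il6st, Kif18b, further interferon-stimulated genes and some that did not pass. The members, the gene lists and the comparison were chosen with earlier results of these data known, so the direction of a list is a description and not independent evidence.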

Additional observations from a re-analysis of the deposited data

Results flagged for a closer look

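In 322 groups of 4 arrays, those of each named gene in PD-1int and in PD-1hi, 13 held an array far from the other 3 by Dixon's ratio at 95%. Chance alone gives about 1 group in 20.

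In PD-1int, Lag3 stood at 10.33 in replicate 3 against 9.66 to 9.75 in the others, and Cd200r1 at 7.496 in replicate 4 against 5.97 to 6.18. In replicate 2, Cmpk2 stood at 9.14 against 8.63 to 8.68, Cd8a at 11.70 against 11.30 to 11.35 and Maf at 8.81 against 9.63 to 9.71. Dusp6 was 10.35 in replicate 1 against 10.70 to 10.74.

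In PD-1hi replicate 1, 3 mitosis genes stood above the other arrays: Kif20a at 9.26 against 8.83 to 8.86, Kif2c at 8.87 against 8.39 to 8.42 and Kif18b at 10.38 against 9.94 to 10.01. In the same array Tnfsf14 was lower, at 6.09 against 6.62 to 6.70, and Cd3e lower, at 12.86 against 12.95 to 12.96. In PD-1hi replicate 2, Klrk1 was 8.87 against 9.96 to 10.07 and Pdk1 6.30 against 6.63 to 6.67. For Lag3, Cd200r1, Cmpk2, Maf, Kif20a and Pdk1 the call held without each of the 8 arrays in turn. The Klrk1 call held without PD-1hi replicate 1 or 3, and it was lost without PD-1hi replicate 2.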

How the results depend on the processing

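Of the 734 genes, 664 were also called with the replicate number as a block over all 16 arrays (748 in all, 316 higher and 432 lower), and 488 in a fit of the 8 effector arrays (582 in all, 291 and 291). In the 8 arrays with the replicate block 498 were called, 250 higher and 248 lower, where 431 were lower in the fit of 16. Deviations of PD-1int and PD-1hi arrays of the same number correlated with r of 0.085, 0.046, 0.039 and -0.022. Those of different numbers ran from -0.063 to 0.068. Such values over all genes cannot tell whether arrays of the same number share a mouse. Without 1 array the count was 470 to 751, with 176 to 304 higher and 286 to 447 lower, the lowest without PD-1int replicate 1 and PD-1hi replicate 4. The share that was higher was 41.3% in the main fit, 50% in the 8 arrays alone, 44.2% after quantile normalization and 37.9% after median centring. Without the 40% dimmest genes 885 were called, and 725 when probe sets of a gene were averaged. Of the 141 named genes that were called, 41 lost the call under 1 or more of these settings, not counting the fits without 1 array. The losses were 26 in the 8 arrays, 32 there with the block, 9 with the block over 16 arrays and 4 under other settings alone. Of the 41, 11 had kept it without each single array, and their values stand beside them above. Counted apart, leaving out 1 array took the call from 41 named genes, in part the same ones. Changes of sign were seen only in genes that did not pass: Cd8a (-0.00616 to 0.129 without 1 array), Cd8b1 (-0.0521 to 0.0216, and 0.0299 after quantile normalization), Cd79a (-0.219 to 0.0548) and Ms4a1 (-0.233 to 0.0732). In each case the cause was not tested. A change near 0.5 is at the limit of 4 arrays per subset, and dim genes such as Il2 and Klra9 are compressed on this scale.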

Other observations

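Further genes that no list held also changed between PD-1hi and PD-1int; those given here were chosen after their values were seen, and other genes of their pathways were not counted. Axin2, a scaffold of the beta-catenin destruction complex, was 8.03, 7.98, 7.93 and 7.81 in PD-1int and 7.27, 7.36, 7.59 and 7.24 in PD-1hi (-0.57 ± 0.10, adjusted p = 0.00173). Znrf3, a ubiquitin ligase that removes Wnt receptors, was 8.37, 8.29, 8.08 and 8.32 against 7.49, 7.24, 7.61 and 7.39 (-0.83 ± 0.10, adjusted p = 7.91e-05). Its relative Rnf43 fell with overlapping arrays (-0.76 ± 0.18, adjusted p = 0.0264), a call that was lost without PD-1int replicate 2 or 4 or PD-1hi replicate 1, 2 or 4 (up to 0.0908). Znrf3 and Rnf43 stood apart elsewhere, with naive means of 9.71 and 6.91.

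The acetyl-CoA synthetases Acss1 and Acss2 fell by more than 2-fold. Acss1, the mitochondrial enzyme, was 9.81, 9.79, 9.74 and 9.82 in PD-1int and 8.79, 8.65, 8.46 and 8.29 in PD-1hi (-1.24 ± 0.10, adjusted p = 8.78e-07). Acss2, the cytosolic and nuclear enzyme, was 8.07, 8.33, 8.31 and 8.27 against 6.55, 7.45, 7.32 and 6.73 (-1.23 ± 0.17, adjusted p = 0.000241). Neither overlapped, and both were higher in naive and memory cells (8.89 to 10.53) than in PD-1int.

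The comparison left out probe sets without a single gene symbol. In a fit of all 41345 probe sets, 84 of these 17824 (0.471%) passed, 24 higher and 60 lower in PD-1hi, where 1.85% of the probe sets with 1 symbol did.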
